A study of Mus musculus with 4 samples.

Results

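The genes described here encode the enzymes and transporters of glycolysis, the subunits of hypoxia-inducible factor (HIF) and genes that HIF is known to induce. They were chosen by symbol, for their known roles and not by a threshold on their values, but with earlier results of these data known. They come from a table of CD45-negative mouse lung tumour cells with and without the deubiquitinase Usp25. The 39 listed symbols correspond to 38 of the 21445 rows of the table, since Ero1l and Ero1a are names of the same gene and the table writes Ero1l. All 38 had a mean of at least 1 FPKM (fragments scaled for transcript length and library size) in either group, and so were among the 12476 genes tested. The table's header names no unit, and the library values were read as FPKM because they are not whole and their sums, 525973 to 564975, differ by library.

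Glycolysis splits glucose into pyruvate in the cytosol. Glucose enters through transporters such as Slc2a1, lactate dehydrogenase turns pyruvate into lactate, and lactate leaves through monocarboxylate transporters such as Slc16a3. HIF is a dimer of an oxygen-labile alpha subunit, Hif1a or Epas1, with the stable subunit Arnt. When oxygen is present, prolyl hydroxylases of the Egln family mark the alpha subunit for ubiquitin-dependent destruction, and when oxygen is scarce the dimer binds short DNA elements and raises glycolytic genes, Vegfa, Car9 and the hydroxylase gene Egln3. Alpha subunit protein is set largely after translation, so transcript levels of HIF subunits and of HIF targets are separate readouts.

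The KL25 mice carried floxed Lkb1 alleles (Lkb1 fl/fl) and were Usp25-/-, and the KL mice carried the floxed Lkb1 alleles without the loss of Usp25. Lung tumours were collected 10 weeks after intranasal adenoviral Cre, dissociated and incubated with CD45 beads, and each group had 2 libraries, from 2 mice per group according to the design text. The sources used here give neither the promoter driving Cre nor the age of the mice, and Usp25 is labelled -/- and not floxed, so its loss is not limited by the labels to tumour cells. The study asked how Usp25 promotes growth of these tumours, and the comparison addresses which transcripts differ without it.

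Usp25 itself had levels of 2.65 and 1.71 FPKM in the KL25 libraries, against 38.5 and 16.6 FPKM in the KL ones, lower in KL25 as the genotype label states. Its adjusted p was 0.942 in limma and 0.0170 in the authors' deposited table. Mean normalized counts of all genes added up to 10564266, and size factors ranged from 0.823 to 1.30. KL replicate 1 stood apart, with a correlation across genes of 0.874 to 0.885 with each other library, against 0.933 to 0.967 among the others. Leukocyte transcripts were present in every library despite the CD45- label: Ptprc, which encodes CD45 itself, was at 51.0 and 43.3 FPKM in the KL25 libraries, against 123 and 46.4 FPKM in the KL ones, and 0 of 12 pan-leukocyte genes were listed at 0 in any library. The summed level of 12 epithelial genes such as Epcam and Krt8 was 4541 and 1721 FPKM in the KL25 libraries, against 1193 and 1004 FPKM in the KL ones. That of 9 neutrophil genes was 2226 and 1360 FPKM in the KL25 libraries, against 46727 and 845 FPKM in the KL ones, and that of 12 endothelial genes was 129 and 284 FPKM in the KL25 libraries, against 160 and 394 FPKM in the KL ones. In such bulk samples, fewer cells of a type and less RNA per cell cannot be told apart.

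The 38 genes did not share a direction. On the log2(FPKM + 1) scale the log2 fold change was above 0 for 17 (44.74%) and below 0 for 21. Over all 12476 genes tested 53.05% were above 0. The median was -0.02 for the members, beside 0.03 over all genes tested. The highest values were those of Car9, Stc2, Ndrg1, Angptl4 and P4ha2, all HIF targets outside glycolysis, and the lowest those of Pfkfb3, Slc16a3 and Gapdh, all of glycolysis or lactate export. Next lowest was Ankrd37, at -0.53, a HIF target outside glycolysis. With KL replicate 1 left out, Pfkfb3 and Slc16a3 were at -0.06 and 0.07, and Gapdh was at -1.05. In limma with Benjamini-Hochberg adjustment, 0 of the 38 passed an adjusted p of 0.05 in either direction, and 0% of all genes tested did so in either direction. Unadjusted p-values in limma were below 0.05 for 3 members higher in KL25 and 0 lower, where 2.16% of all genes tested were higher and 1.07% lower. Stc2, counted among the 3, reached a mean of 1 FPKM only in KL25 (3.82 FPKM, against 0.548 FPKM in KL). It was thus tested only through the group where it is high. Unadjusted p-values in the authors' deposited table were below 0.05 for 2 higher members and 0 lower ones, where 1.62% of all genes were higher and 2.47% lower. At an adjusted p below 0.05, the authors' deposited table has 0 members, where 0.0879% of genes were higher and 0.0338% lower, and it gives each member an adjusted p of 0.99997. Both KL25 values exceeded both KL values in 4 members (10.5%), where 19.1% of all genes tested did so, and were under both in 6 (15.8%), where 15.0% did so, so both shares were near or under that background. The direction of the median turned on single libraries: leaving out KL25 replicate 1 gave -0.29 (all genes tested 0.06) and leaving out KL25 replicate 2 gave 0.27 (all genes tested 0.02). Leaving out KL replicate 1 gave 0.05 (all genes tested -0.01) and leaving out KL replicate 2 gave -0.05 (all genes tested 0.07). With KL25 replicate 1 left out, KL25 lay above KL in 4 members and below in 16, where 31.1% and 22.6% of all genes did so. With KL25 replicate 2 left out the counts were 16 and 9, where 32.8% and 29.0% of all genes did so. With KL replicate 1 left out they were 12 and 11 (35.4% and 37.7% of all genes), and with KL replicate 2 left out 11 and 17 (43.8% and 37.4% of all genes). The sign of the log2 fold change stayed as in the full fit in each of these 4 fits for 18 of the 38. Members whose groups do not overlap keep their sign in any such fit, and the share over all genes tested was not computed.

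**Figure D1:**
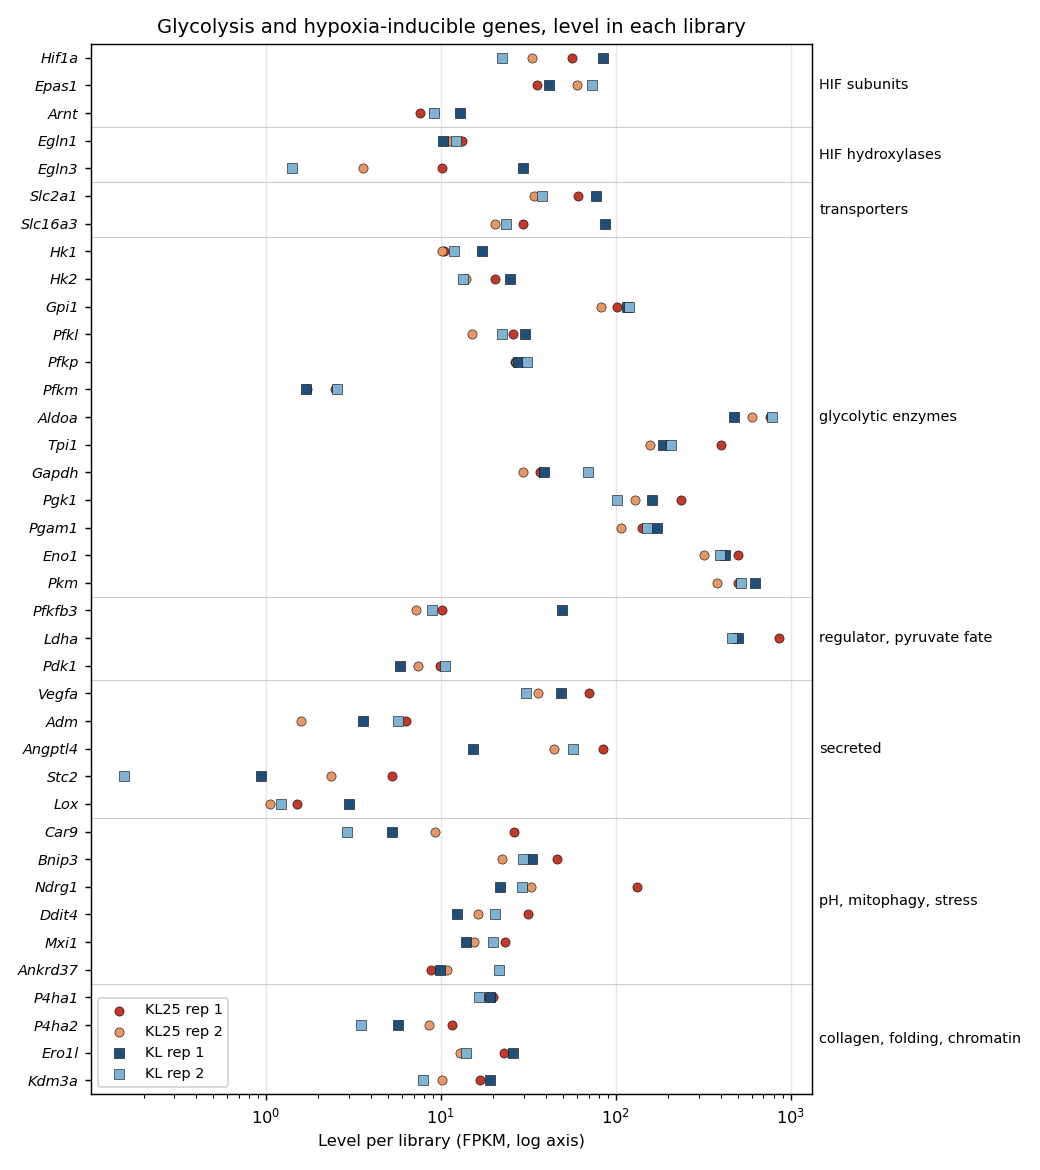
Level of each of the 38 genes in FPKM (log axis), 1 point per library, with KL25 as circles and KL as squares, grouped by role. The groups overlap except for 4 members higher and 6 lower in both KL25 libraries; KL25 replicate 2 was the highest library for 0 members, and KL25 replicate 1 and KL replicate 1 were the highest for 16 and 14.

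Single libraries stood out among the members. KL25 replicate 1 was the highest library for 16 of the 38 members and KL replicate 1 for 14, while KL25 replicate 2 was the highest for 0 and the lowest for 15. Over all genes tested, KL25 replicate 1 was the highest for 25.4%, KL replicate 1 for 30.2% and KL25 replicate 2 for 17.6%, and KL25 replicate 2 was the lowest for 13.3%. The 38 genes together summed to 4368 and 2778 FPKM in the KL25 libraries, against 3438 and 3347 FPKM in the KL ones, so the KL libraries lay between those of KL25.

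Transcripts of the HIF subunits overlapped between the groups. Hif1a was at 56.0 and 33.4 FPKM in the KL25 libraries, against 84.1 and 22.5 FPKM in the KL ones. Both KL25 values thus lay inside the range set by the KL libraries. Its log2 fold change was -0.01 (SE 0.68), and -0.94 or 0.91 when KL replicate 2 or KL replicate 1 was left out. Epas1, which encodes the alpha subunit prominent in endothelium, was at 35.4 and 60.0 FPKM in the KL25 libraries, against 41.4 and 73.5 FPKM in the KL ones, with a log2 fold change of -0.26 (SE 0.44). Replicate 2 was the higher library of each group for Epas1, and the same was so for the summed endothelial genes and for each of them. Per 1000 FPKM of the endothelial sum, Epas1 was at 273 and 211 in KL25, against 258 and 187 in KL. Arnt was at 7.65 and 9.20 FPKM in the KL25 libraries, against 12.9 and 9.11 FPKM in the KL ones, with a log2 fold change of -0.34 (SE 0.31).

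Of the prolyl hydroxylases, Egln1, the main oxygen sensor that marks HIF alpha subunits, varied little, and Egln3, itself a HIF target, varied the most of those of the 38 members that were above 1 FPKM in every library. Egln1 was at 13.2 and 11.1 FPKM in the KL25 libraries, against 10.3 and 12.2 FPKM in the KL ones, a log2 fold change of 0.10 (SE 0.28). Egln3 was at 10.2 and 3.59 FPKM in the KL25 libraries, against 29.7 and 1.42 FPKM in the KL ones. Its highest library was 20.9 times its lowest, and both extremes were KL libraries. The log2 fold change of Egln3 was -0.26 (SE 1.23), and 1.57 without KL replicate 1 and -2.10 without KL replicate 2.

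Glucose and lactate transporter transcripts were highest in KL replicate 1. Slc2a1, the glucose importer of the list, was at 61.0 and 34.0 FPKM in the KL25 libraries, against 77.1 and 37.9 FPKM in the KL ones, a log2 fold change of -0.24 (SE 0.49). Slc16a3, which exports lactate, was at 29.7 and 20.5 FPKM in the KL25 libraries, against 87.1 and 23.5 FPKM in the KL ones. The groups overlapped for both. The log2 fold change of Slc16a3 was -0.85 (SE 0.65), and 0.07 without KL replicate 1.

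The 13 glycolytic enzymes between hexokinase and pyruvate kinase had mostly small negative log2 fold changes. The value was below 0 for 10 and above 0 for 3, where 53.05% of all genes tested were above 0. The median was -0.13, beside 0.03 over all genes tested, and 0 passed in limma in either direction. In 6 of them both KL25 values were under both KL values, and in 0 above, where 15.0% and 19.1% of all genes tested did so. Their summed level was 2763 and 1876 FPKM in the KL25 libraries, against 2302 and 2427 FPKM in the KL ones, so the summed level did not separate the groups. Leaving out KL25 replicate 1 gave an enzyme median of -0.37, leaving out KL25 replicate 2 one of -0.02, and leaving out KL replicate 1 or 2 one of -0.20 or -0.24.

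The 6 enzymes with libraries that did not overlap were Hk1, Gpi1, Pfkp, Gapdh, Pgam1 and Pkm. Pkm, the pyruvate kinase that makes pyruvate and ATP in the last step, was at 498 and 380 FPKM in the KL25 libraries, against 627 and 520 FPKM in the KL ones, a log2 fold change of -0.39 (SE 0.37). Its nearest libraries of opposite groups differed less than the 2 libraries of either group. Gpi1, which converts glucose-6-phosphate to fructose-6-phosphate, was at 102 and 82.2 FPKM in the KL25 libraries, against 116 and 119 FPKM in the KL ones, a log2 fold change of -0.36 (SE 0.31). Pgam1, the phosphoglycerate mutase, was at 142 and 107 FPKM in the KL25 libraries, against 172 and 152 FPKM in the KL ones, a log2 fold change of -0.39 (SE 0.33). For Gpi1 and Pgam1 alike, KL25 replicate 2 was the lowest library and the gap from KL25 replicate 1 to the lower KL library was smaller than that between the KL25 libraries.

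Hk1, the hexokinase that commits glucose to the cell by phosphorylation, was at 10.5 and 10.1 FPKM in the KL25 libraries, against 17.3 and 11.9 FPKM in the KL ones, a log2 fold change of -0.44 (SE 0.31). Pfkp, the platelet-type phosphofructokinase, was at 26.7 and 26.9 FPKM in the KL25 libraries, against 27.8 and 31.3 FPKM in the KL ones, a log2 fold change of -0.13 (SE 0.28). The 2 KL25 libraries of Hk1 and of Pfkp were nearly equal, and the KL libraries spread more. Gapdh, which makes 1,3-bisphosphoglycerate and NADH, was at 37.0 and 29.6 FPKM in the KL25 libraries, against 39.1 and 69.6 FPKM in the KL ones, and its log2 fold change of -0.64 (SE 0.39) was the most negative of the 13. It was -0.24 without KL replicate 2. On this per-length scale Gapdh lay far under its neighbours in the pathway, Aldoa at 603 to 767 FPKM in KL25 and 475 to 780 FPKM in KL, and Tpi1 at 157 to 398 FPKM in KL25 and 186 to 208 FPKM in KL. Pseudogenes that GENCODE names after Gapdh, Aldoa, Pgk1, Pgam1 and Ldha number 2, 2, 3, 2 and 2, and further copies may carry other names. The sources used here do not say how reads shared with such copies were counted, so the levels of these genes are uncertain.

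The other 7 enzymes overlapped between the groups. Tpi1, triose phosphate isomerase, and Pgk1, the first ATP-yielding kinase of the pathway, had log2 fold changes of 0.34 (SE 0.52) and 0.44 (SE 0.45), and KL25 replicate 1 held the highest value of both, at 398 and 235 FPKM. Without that library they were -0.33 and 0.01. Hk2, the hexokinase that HIF induces, was at 20.5 and 13.9 FPKM in the KL25 libraries, against 25.01 and 13.4 FPKM in the KL ones. Aldoa, Eno1, Pfkl and Pfkm had log2 fold changes of 0.16, -0.03, -0.38 and -0.01, and Pfkm, the muscle-type phosphofructokinase, lay lowest of the 13 at 1.70 to 2.55 FPKM over the 4 libraries.

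Genes that regulate flux or decide the fate of pyruvate differed in direction. Ldha, lactate dehydrogenase A, was at 864 and 473 FPKM in the KL25 libraries, against 500 and 460 FPKM in the KL ones, a log2 fold change of 0.41 (SE 0.44). The value was -0.02 without KL25 replicate 1, the highest library. Pdk1, the kinase that keeps pyruvate out of mitochondria, was at 9.91 and 7.37 FPKM in the KL25 libraries, against 5.84 and 10.6 FPKM in the KL ones, a log2 fold change of 0.10 (SE 0.37). Pfkfb3, which makes the phosphofructokinase activator fructose-2,6-bisphosphate, was at 10.1 and 7.24 FPKM in the KL25 libraries, against 49.1 and 8.94 FPKM in the KL ones. Its log2 fold change of -1.22 (SE 0.78) was the most negative of the 38, and -0.06 without KL replicate 1.

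**Figure D2:**
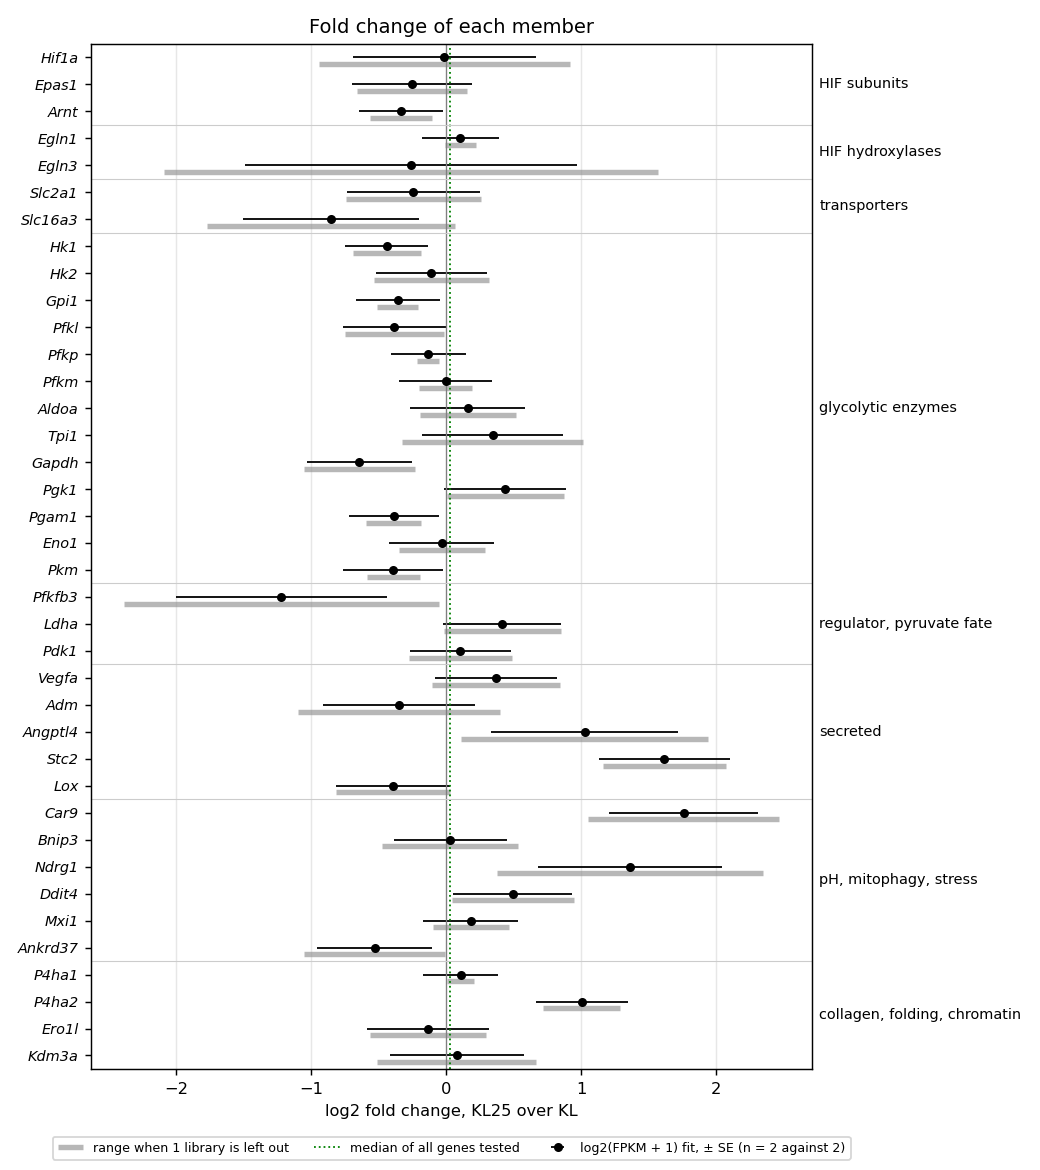
Log2 fold change of KL25 over KL for each member on the log2(FPKM + 1) scale (points, ± SE from limma, n = 2 libraries each), with the range of the 4 fits that left out 1 library (grey bars) and the median of all genes tested (dotted line, 0.03). Car9, Stc2 and P4ha2 had log2 fold changes above 0.7 in the full fit and in each of these 4 fits. Their sign could not turn, since both KL25 values exceeded both KL values. The ranges of Hif1a and Egln3 ran across 0, as they had to with both KL25 values between the KL values.

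Car9, Stc2, P4ha2 and Ndrg1, HIF targets outside glycolysis, were the 4 members whose KL25 values both exceeded both KL values. Their genes lie at chr4:43506966-43513729, chr11:31357307-31370074, chr11:54100095-54131665 and chr15:66929318-66969640 (GENCODE, GRCm38). Car9, the membrane-bound carbonic anhydrase that handles acid at the surface of hypoxic cells, was at 26.4 and 9.26 FPKM in the KL25 libraries, against 5.24 and 2.92 FPKM in the KL ones, with means of 17.8 ± 12.1 FPKM in KL25 mice and 4.08 ± 1.64 FPKM in KL mice (SD, 2 libraries each). Stc2, a secreted glycoprotein, was at 5.30 and 2.35 FPKM in the KL25 libraries, against 0.942 and 0.154 FPKM in the KL ones. Its mean was under 1 FPKM in KL, so it passed the level filter only through KL25. Car9 and Stc2 kept the same order of libraries, from KL25 replicate 1 through KL25 replicate 2 and KL replicate 1 to KL replicate 2. P4ha2, a catalytic subunit of the enzyme that hydroxylates prolines of collagen, had that order too, at 11.6 and 8.61 FPKM in the KL25 libraries, against 5.70 and 3.50 FPKM in the KL ones. Ndrg1, a stress-induced cytosolic protein, was at 133 and 33.0 FPKM in the KL25 libraries, against 21.9 and 29.1 FPKM in the KL ones, so that its lower KL25 library lay just above the higher KL library.

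The means of Car9, Stc2, P4ha2 and Ndrg1 were 4.37-fold, 6.97-fold, 2.20-fold and 3.25-fold higher in KL25. The log2 fold change of Car9 was 1.76 (SE 0.55; unadjusted p = 0.0228, adjusted p = 0.942 in limma), and that of Stc2 was 1.62 (SE 0.49; unadjusted p = 0.0195, adjusted p = 0.942 in limma). For P4ha2 it was 1.00 (SE 0.34; unadjusted p = 0.0308, adjusted p = 0.942 in limma) and for Ndrg1 1.36 (SE 0.68; unadjusted p = 0.101, adjusted p = 0.942 in limma). The authors' deposited table gives log2 fold changes of 2.08 for Car9 (unadjusted p = 0.0339), 2.71 for Stc2 (unadjusted p = 0.0357), 1.09 for P4ha2 (unadjusted p = 0.0815) and 1.68 for Ndrg1 (unadjusted p = 0.117). The mean normalized count of Stc2 was only 44.7, and the log2(FPKM + 1) scale understates its fold change. Leaving out KL25 replicate 1 gave Ndrg1 a log2 fold change of 0.37, and leaving out KL25 replicate 2 one of 2.35. Over the 4 fits that left out 1 library, Car9 ranged from 1.05 to 2.47, Stc2 from 1.16 to 2.07 and P4ha2 from 0.72 to 1.29. Because their groups did not overlap, the sign of these genes could not turn in such fits.

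Epithelial genes also lay higher in the KL25 libraries. In 9 of the 12 both KL25 values exceeded both KL values, where 19.1% of all genes tested did so, 0 of 12 were listed at 0, KL25 replicate 1 was the highest library for all 12, and their summed level followed the library order of Car9. Per 1000 FPKM of that epithelial sum, Car9 was at 5.81 and 5.38 in KL25, against 4.39 and 2.91 in KL, and Stc2 at 1.17 and 1.36 in KL25, against 0.789 and 0.154 in KL. On this ratio, chosen after the values were seen, Car9 and Stc2 did not overlap between the groups, with Stc2 at only 0.154 FPKM in KL replicate 2. P4ha2, at 2.56 and 5.001 in KL25, against 4.78 and 3.49 in KL, and Ndrg1, at 29.3 and 19.2 in KL25, against 18.3 and 29.0 in KL, did overlap. These genes had been picked because their groups did not overlap, and the share of all genes that do not overlap on this ratio was not computed. The part of epithelial content in these differences was not tested.

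**Figure D3:**
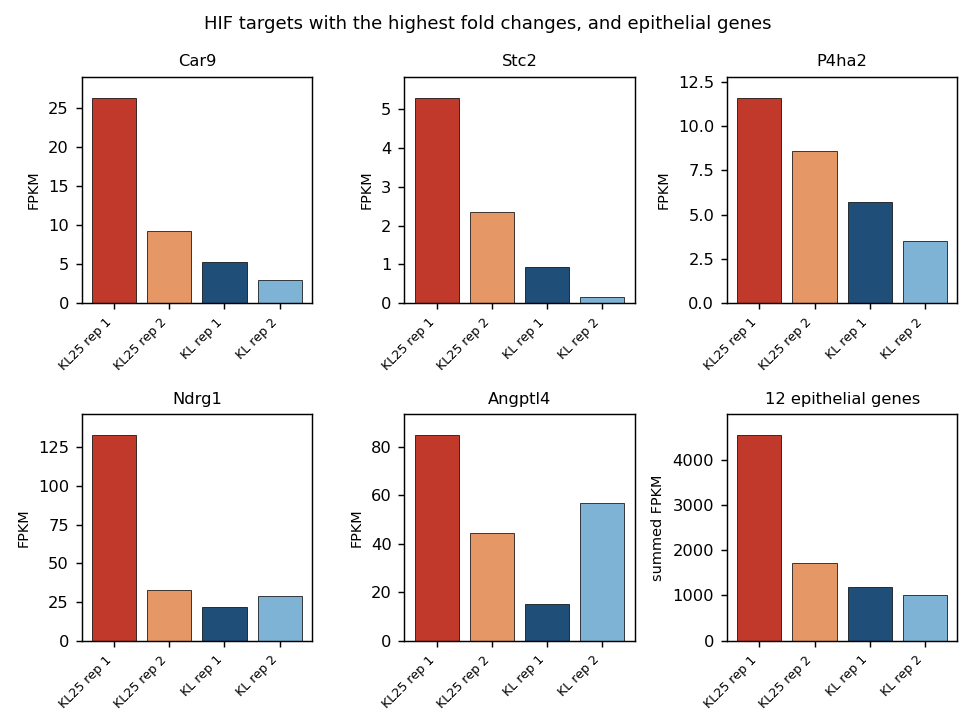
Level in each library (bars, FPKM) of the 5 HIF targets with the highest log2 fold changes, and the summed FPKM of 12 epithelial genes. Car9, Stc2 and P4ha2 step down in the same library order as the epithelial sum (4541, 1721, 1193 and 1004 FPKM), Ndrg1 is high in KL25 replicate 1 alone, and Angptl4 overlaps between the groups.

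The promoters of these targets were searched for the core letters of the hypoxia response element, ACGTG or GCGTG, on both strands, from 250 bases before to 50 after the transcription start (RefSeq, GRCm38.p6). The table of promoters held 34 of the 38 genes. Epas1, Angptl4, Lox and Ndrg1 were not matched. The 250 bases before the start are shown for Car9 (chr4:43506776-43507025, plus strand), Stc2 (chr11:31370062-31370311, minus strand) and P4ha2 (chr11:54100674-54100923, plus strand), the targets higher in both KL25 libraries that have an entry, and for Egln3 (chr12:54203875-54204124, minus strand) and Slc16a3 (chr11:120948817-120949066, plus strand), which were high in KL replicate 1. Each reads 5′ to 3′ along the gene, with the motif in capitals (CACGT and CACGC are the motifs on the opposite strand).
Car9: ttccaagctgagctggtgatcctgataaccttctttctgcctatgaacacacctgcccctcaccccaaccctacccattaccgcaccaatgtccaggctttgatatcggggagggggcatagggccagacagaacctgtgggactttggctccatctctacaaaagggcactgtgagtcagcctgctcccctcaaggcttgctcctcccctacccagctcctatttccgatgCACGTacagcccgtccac
Stc2: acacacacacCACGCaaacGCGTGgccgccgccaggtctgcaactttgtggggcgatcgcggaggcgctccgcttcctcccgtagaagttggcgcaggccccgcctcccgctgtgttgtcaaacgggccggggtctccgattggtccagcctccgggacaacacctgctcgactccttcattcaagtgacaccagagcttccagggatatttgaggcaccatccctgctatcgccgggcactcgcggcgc
P4ha2: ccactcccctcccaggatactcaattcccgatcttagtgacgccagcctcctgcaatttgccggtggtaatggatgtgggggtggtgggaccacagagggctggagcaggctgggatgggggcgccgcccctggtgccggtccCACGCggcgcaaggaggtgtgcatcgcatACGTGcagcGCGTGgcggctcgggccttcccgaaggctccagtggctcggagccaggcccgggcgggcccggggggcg
Egln3: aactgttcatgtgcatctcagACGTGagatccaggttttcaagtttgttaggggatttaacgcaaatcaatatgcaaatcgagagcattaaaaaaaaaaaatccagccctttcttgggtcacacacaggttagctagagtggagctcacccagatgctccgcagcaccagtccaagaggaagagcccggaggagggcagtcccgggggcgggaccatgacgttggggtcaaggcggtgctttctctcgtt
Slc16a3: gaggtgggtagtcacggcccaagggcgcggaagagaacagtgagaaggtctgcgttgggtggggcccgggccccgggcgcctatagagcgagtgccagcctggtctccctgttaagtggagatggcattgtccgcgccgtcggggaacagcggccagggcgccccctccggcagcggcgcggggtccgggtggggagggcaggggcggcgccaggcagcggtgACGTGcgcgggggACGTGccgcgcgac

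Car9 carried 1 ACGTG, on the opposite strand, from -18 to -14 relative to the start, and no GCGTG. Slc16a3 carried 2 ACGTG, at -27 to -23 and -14 to -10, and Egln3 carried 1 at -229 to -225. P4ha2 carried ACGTG at -78 to -74 and again after the start, at 11 to 15, and 2 GCGTG. Stc2 carried 2 GCGTG and no ACGTG in this window. By gene, counting any of its listed promoters, 24 of the 34 members (70.6%) held an ACGTG. The share was 29.0% of the 9270 genes tested that have a listed promoter and 21.8% of all genes with one. A GCGTG was held by 23 of 34 (67.6%), against 55.5% of these genes tested and 35.2% of all. An ACGTG can be part of the E-box CACGTG, which holds it on both strands. With those left out, the share by gene was 67.6% for the members and 20.1% for the genes tested. A gene with more listed promoters has more places for a match. By promoter, 54.9% of those of members held an ACGTG, against 25% of those of genes tested. Many of these genes are listed because HIF is known to induce them, so the share is not independent of how the list was made. The motif was present both in genes higher in KL25 and in genes high in KL replicate 1, and a match describes letters, not a bound site.

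The remaining HIF targets outside glycolysis overlapped between the groups. Over all 15 such genes the log2 fold change was above 0 for 11 (73.33%), where 53.05% of all genes tested were. Its median was 0.18, beside 0.03 over all genes tested. Leaving out KL25 replicate 1 gave a median of -0.10 with 7 above 0, where 55.41% of all genes tested were. Leaving out KL25 replicate 2 gave 0.53 with 13 above 0, where 51.07% were. Vegfa, the endothelial growth factor, was at 70.1 and 35.8 FPKM in the KL25 libraries, against 48.6 and 30.6 FPKM in the KL ones, a log2 fold change of 0.37 (SE 0.45). Within each group replicate 1 was the higher library. Angptl4, a secreted inhibitor of lipoprotein lipase, was at 84.8 and 44.5 FPKM in the KL25 libraries, against 15.3 and 57.0 FPKM in the KL ones, a log2 fold change of 1.02 (SE 0.69), and 0.11 without KL replicate 1.

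Bnip3, which marks mitochondria for autophagy, had a log2 fold change of 0.03 (SE 0.42), and Ddit4, an inhibitor of mTORC1 signalling, one of 0.49 (SE 0.44). Ddit4 was at 31.4 and 16.3 FPKM in the KL25 libraries, against 12.3 and 20.3 FPKM in the KL ones. Mxi1, an antagonist of Myc, and P4ha1, the paralog of P4ha2, had values of 0.18 (SE 0.35) and 0.11 (SE 0.28), and P4ha1 was among the steadiest genes, at 19.8 and 18.5 FPKM in the KL25 libraries, against 19.1 and 16.5 FPKM in the KL ones. Ero1l, an oxidase of the endoplasmic reticulum, and Kdm3a, a histone H3 lysine demethylase, were at -0.14 (SE 0.45) and 0.08 (SE 0.50). Ankrd37 was at 8.85 and 10.9 FPKM in the KL25 libraries, against 9.91 and 21.5 FPKM in the KL ones, and its log2 fold change of -0.53 (SE 0.43) was -0.01 without KL replicate 2. The vasodilator peptide gene Adm and the collagen cross-linking oxidase Lox lay low, at 1.59 to 6.30 FPKM and 1.06 to 2.99 FPKM over the 4 libraries, with log2 fold changes of -0.35 (SE 0.56) and -0.39 (SE 0.42).

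Egln3, Pfkfb3, Slc16a3 and Hif1a were highest in KL replicate 1, the library with the high neutrophil sum. Relative to the mean of the other 3 libraries, KL replicate 1 was 5.84 times as high for Egln3, 5.60 times for Pfkfb3, 3.54 times for Slc16a3 and 2.26 times for Hif1a. S100a8, which encodes an abundant neutrophil protein, was at 838 and 536 FPKM in the KL25 libraries, against 19445 and 382 FPKM in the KL ones, and all 9 neutrophil genes had their highest value in KL replicate 1. In the other 3 libraries Pfkfb3 lay at 7.24 to 10.1 FPKM and Slc16a3 at 20.5 to 29.7 FPKM. Of 12 pan-leukocyte genes, 9 were also highest in that library, where 30.2% of all genes tested were. Of 12 macrophage genes, 3 (Adgre1, Csf1r and Marco) were highest there and 7 in KL replicate 2. The summed level of the 12 macrophage genes, most of it Lyz2 and Chil3, was 41624 and 40176 FPKM in the KL25 libraries, against 20044 and 49669 FPKM in the KL ones. Per 1000 FPKM of the neutrophil sum the order was the other way, with KL replicate 1 the lowest library for each of the 4 members. That sum was 46727 FPKM in KL replicate 1 and 845 to 2226 FPKM elsewhere, so this order was largely set by the sum itself. On this ratio Pfkfb3 was at 4.54 and 5.32 in KL25, against 1.05 and 10.6 in KL. Hif1a was at 25.2 and 24.5 in KL25, against 1.80 and 26.6 in KL. The part of neutrophils and other leukocytes in the values of KL replicate 1 was not tested.

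**Figure D4:**
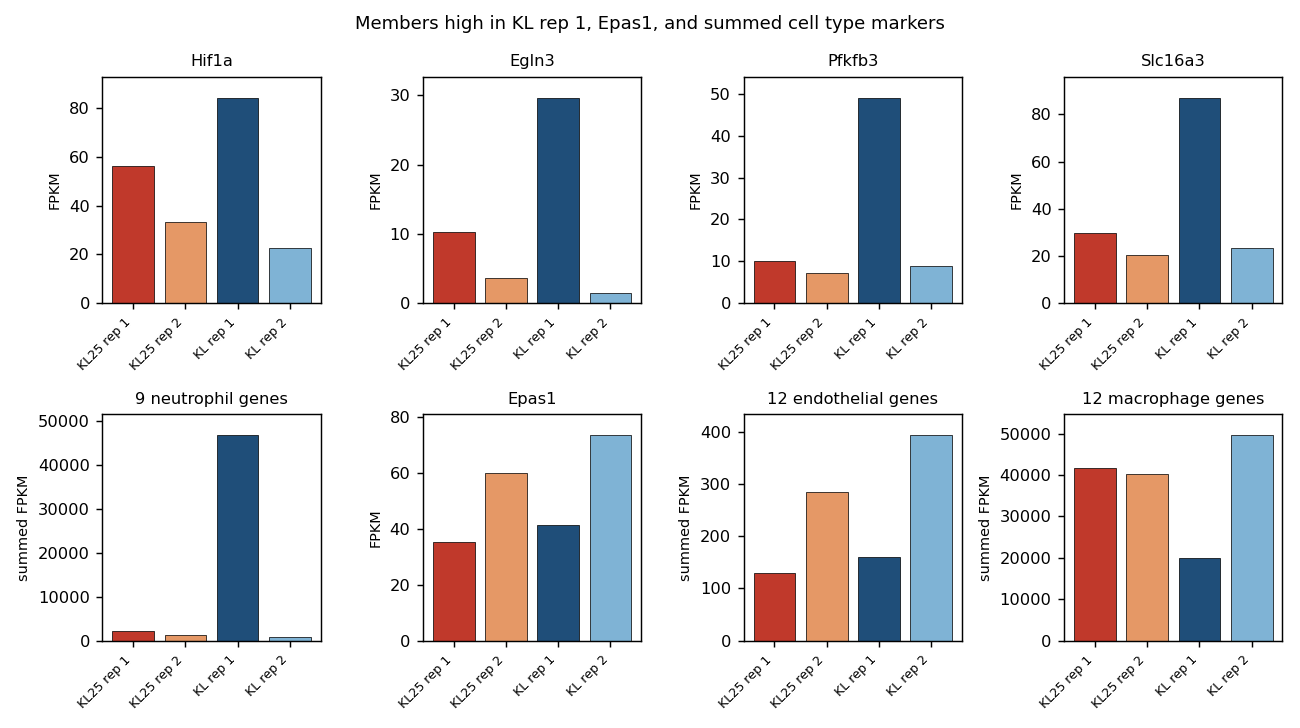
Level in each library (bars, FPKM) of Hif1a, Egln3, Pfkfb3, Slc16a3 and Epas1, and summed FPKM of neutrophil, endothelial and macrophage genes. Pfkfb3 (49.1 FPKM) and Slc16a3 (87.1 FPKM) are high in KL replicate 1, as is the neutrophil sum, and Epas1 is higher in replicate 2 of each group, as is the endothelial sum.

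Because FPKM are per length, shares of paralogs within a library could be compared. Of the summed hexokinase level, Hk2 made up 50.8% and 36.5% in KL25, against 22.7% and 31.8% in KL. Hk3, the hexokinase of myeloid cells, made up 23.2% and 36.9% in KL25, against 61.6% and 39.9% in KL. The level of Hk2 itself overlapped between the groups. Of the summed level of P4ha1 and P4ha2, P4ha2 made up 36.9% and 31.7% in KL25, against 23.0% and 17.5% in KL. Of the summed level of Slc16a1 and Slc16a3, Slc16a3 made up 75.2% and 73.8% in KL25, against 91.2% and 79.1% in KL. For these 4 shares, and for the complementary shares of P4ha1 and Slc16a1, the groups did not overlap. The two-sided exact permutation p was 0.333 for each, the smallest that 2 against 2 libraries allow. After Benjamini-Hochberg adjustment over the 24 shares of 9 families computed, it was 1. All other shares of the 24 overlapped between the groups.

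Between the HIF alpha subunits, the Hif1a share was the higher in replicate 1 of each group. Hif1a made up 61.2% and 35.7% of the summed level of Hif1a, Epas1 and Hif3a in KL25, against 66.7% and 23.4% in KL, and Hif3a at most 0.55%. Ldha made up at least 97.6% of lactate dehydrogenase A and B transcripts in every library. Slc2a1 made up 96.4% and 93.7% of the sum with Slc2a3 in KL25, against 86.6% and 95.9% in KL, and Slc2a3 was at its highest, 11.9 FPKM, in KL replicate 1.

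Among 44 other genes of glycolysis, pyruvate oxidation and the HIF pathway, 37 passed the level filter and 0 passed in limma in either direction. The log2 fold change was above 0 for 18 (48.65%, beside 53.05% of all genes tested) and below 0 for 19, and its median was -0.06. In 9 (24.3%) both KL25 values exceeded both KL values and in 7 (18.9%) both were under them, where 19.1% and 15.0% of all genes tested did so. Fam162a, a mitochondrial protein induced by hypoxia, was at 127 and 67.4 FPKM in the KL25 libraries, against 35.3 and 52.4 FPKM in the KL ones, a log2 fold change of 1.09 (SE 0.44). Like Car9 it was highest in KL25 replicate 1. Cited2, which competes with HIF for the coactivators p300 and CBP, was at 12.2 and 20.3 FPKM in the KL25 libraries, against 36.9 and 26.7 FPKM in the KL ones, a log2 fold change of -0.95 (SE 0.37). Edn1, the vasoconstrictor endothelin, was at 3.68 and 6.49 FPKM in the KL25 libraries, against 24.3 and 7.60 FPKM in the KL ones, a log2 fold change of -1.32 (SE 0.59), and -0.54 without KL replicate 1.

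Hk3 was at 9.34 and 14.1 FPKM in the KL25 libraries, against 67.8 and 16.8 FPKM in the KL ones, a log2 fold change of -1.49 (SE 0.68), and -0.51 without KL replicate 1. Pdhb, a subunit of the pyruvate dehydrogenase that feeds the citric acid cycle, was at 92.3 and 66.7 FPKM in the KL25 libraries, against 56.2 and 49.1 FPKM in the KL ones, and Insig2, a sterol sensor partner that HIF can induce, at 17.0 and 13.5 FPKM in the KL25 libraries, against 10.4 and 10.7 FPKM in the KL ones. Their log2 fold changes were 0.57 (SE 0.33) and 0.48 (SE 0.28).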

How the data were processed

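RNA of 4 CD45-negative lung tumour samples (2 KL25, 2 KL) was made into libraries with a stranded mRNA kit. A further part of the genotype, shared by both groups, is not reported here. Per the labels' protocols, cutadapt trimming preceded alignment to GRCm38, and HTSeq gave counts per gene; the submitters' processing notes list GRCm39 beside GRCm38, and neither versions nor the strand setting of the counting is given in the sources used here. The library values the authors deposited were read as FPKM from the values, since the header names no unit. Per the file headers, the authors' table also has a mean normalized count (signal), a standard error and a log2 fold change, a test score, and unadjusted and adjusted p-values (adjusted p NA for 6653 of 21445 genes). Size factors came from steps in the deposited means of genes seen in 1 library. Gene names turned into dates (25 rows) were left out.

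KL25 was compared with KL on log2(FPKM + 1) using the trended variance prior of limma 3.58.1 in R 4.3.3. Genes entered if either group averaged 1 FPKM or more, and p-values were adjusted by Benjamini-Hochberg over all 12476. The pseudocount makes fold changes of low genes too small. The fit was also run on simulated data, without the pseudocount and the level filter and with spreads shuffled over genes. That run therefore did not test the settings used here. Shares were tested with exact permutation (scipy 1.17.1). With 2 mice per group, SEs and p-values in limma rest on the spread between 2 libraries per group, drawn toward the variance trend over all genes. An SE is thus not the spread of that gene alone. Counting intervals were not computed because FPKM were not turned into counts. All members were named, and every library value was given at least for those whose groups did not overlap, the HIF subunits, Slc2a1, Ldha, Pdk1, Vegfa and Car9. Of the other pathway genes, the 6 with lowest p whose libraries did not overlap were named. The members and lists were chosen with earlier results of these data known. Promoter sequences are RefSeq, GRCm38.p6; gene coordinates and pseudogene names are from a GENCODE annotation of GRCm38. Alternatives covered pseudocount, filter, scaling, weights, replicate number and leaving out each library.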

Additional observations from a re-analysis of the deposited data

How the results depend on the processing

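With 2 libraries per group, 0 genes passed in limma in the full fit (269 genes higher, 134 lower, at unadjusted p under 0.05) or under any of the 12 alternatives. Leaving out 1 library in turn, the median log2 fold change of the 38 members ran from -0.289 to 0.270, the number with KL25 above KL from 4 to 16 and with KL25 below KL from 9 to 17, since groups of 1 library overlap less, and the median of the other pathway genes from -0.041 to 0.068. With a level filter of 5 FPKM the last was 0.105, with 29 genes left. The median of the members stayed between -0.06 and -0.02 under the other 8 alternatives. The number of members whose sign turned was 10 and 8 of 38 when KL25 replicate 1 or KL25 replicate 2 was left out, 12 and 4 when KL replicate 1 or KL replicate 2 was, and 1 after scaling by the median ratio or in the authors' deposited table. The share of all genes tested whose sign turned was not computed. Stc2 moved with the pseudocount, to a log2 fold change of 2.82 at 0.1 and 0.65 at 5. The replicate numbers were not taken to pair the mice, as nothing in the labels ties them and the deviations of same-numbered libraries correlated at 0.152. With the replicate number as a block, 0 genes passed, 373 genes being higher and 252 lower at unadjusted p under 0.05, and no call changed.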
